A study of Mus musculus with 12 samples.

Results

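Embryonic stem cells (ESCs) that lost both Ring1 proteins were compared with ESCs in which a Ring1B protein without ubiquitin ligase (E3) activity remained, to see at which genes repression was kept in the absence of that activity. The comparison used 8 of the 12 arrays of the series. They were the 2 arrays of the mock line, taken before 4-hydroxytamoxifen (OHT) and on day 2, and the 6 arrays of the mutant lines I53S #1, I53S #4 and I53A #1 at the same times. The mock line was a single line, so its change had no replicate of its own, and limma, a linear model fitted across all genes, took its spread from the other lines. The other 4 arrays, from the lines WT #1 and WT #3, entered the same fit and gave the background of OHT treatment with active Ring1B present.

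All lines were ESCs of a 129/B6 hybrid background with the genotype Ring1A-/-; Ring1B fl/fl; Rosa26::CreERT2, so that Ring1A was missing in every group, controls included. CreERT2 is a Cre recombinase that enters the nucleus once OHT is bound and then removes the floxed part of Ring1B. OHT was given at 800 nM for 24 hours. The mock line carried an empty vector. The mutant lines stably expressed Flag-tagged Ring1B (I53S) or Ring1B (I53A), and the WT lines tagged wild-type Ring1B, from a CAG promoter with puromycin selection. Before OHT the mutant lines held the mutant protein beside endogenous Ring1B, and after OHT the mutant protein alone. Each line gave 1 array at each time, and no source used here says whether a line came from 1 clone.

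Ring1A and Ring1B are the RING finger proteins at the core of Polycomb repressive complex 1 (PRC1), which keeps developmental regulators silent in ESCs. They place the ubiquitin mark H2AK119u1 on histone H2A, and PRC1 can also hold chromatin compact through other subunits. The I53S and I53A substitutions lie in the RING finger and disturb its contact with the E2 enzyme that supplies ubiquitin. In the text below, a change is day 2 minus before OHT on the log2 scale, a log2 change of 1 is a 2-fold rise, and the difference is the change in the mock line minus the mean change in the 3 mutant lines. A positive difference at a gene that rose is a smaller rise in the presence of the E3-dead protein.

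The 10 ESC markers, *Pou5f1*, *Nanog* and *Sox2* among them, had a median log2 signal between 11.8 and 12.3 on all 12 arrays. The dimmest of them lay between 6.26 and 6.87. The arrays correlated with each other at 0.966 to 0.989, and no 2 were identical. Of 14 fibroblast markers, which the feeder cells of the culture would express, 12 were measured, and their lowest log2 signal on any array was 3.81, before OHT in the mock line. The summed linear signal of these 12 was 4306 before and 5618 after OHT in the mock line, 3768 and 5422 in I53S #1, and between 2068 and 2849 on the arrays of I53S #4 and I53A #1. Without *Vim* the sums were 2322 and 3766 in the mock line, 1973 and 3342 in I53S #1, 1374 and 1569 in I53S #4 and 1162 and 1239 in I53A #1. By these sums I53S #1 was nearest to the mock line, and the other mutant lines held less. The median log2 signal of the 12 on day 2 was 7.69 in the mock line and 7.16, 6.53 and 6.41 in I53S #1, I53S #4 and I53A #1. The probe sets of *Rnf2*, the gene of Ring1B, changed by -0.26 in the mock line and by -0.18, 0.20 and -0.29 in I53S #1, I53S #4 and I53A #1. Where these probes lie relative to the deleted part was not analysed here, so they are no check of the deletion.

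Genes were released in both situations. In the mock line 212 of 16432 genes (1.29%) rose and 63 (0.383%) fell at an adjusted p below 0.05 in limma. In the mutant lines 805 genes (4.9%) rose and 255 (1.55%) fell, and 0 genes passed in the WT lines, where 1251 had an unadjusted p below 0.05. The larger count of the mutant lines came with 3 lines against 1 and is no measure of effect size. On deposited values without quantile normalization the split was 175 rises and 747 falls in the mock line and 540 and 571 in the mutant lines, beside medians of all genes of -0.34 and -0.13. By size alone, 634 genes (3.86%) had a change above 1 in the mock line, against 494 in I53S #1, 420 in I53S #4 and 502 in I53A #1, and 161 and 96 in WT #1 and WT #3. Changes below -1 numbered 268 (1.63%), 161, 98 and 155, and 143 and 83 in the WT lines. The SD of the change over all genes was 0.51 in the mock line and 0.41 to 0.44 in the mutant lines. All values are from bulk RNA, in which more RNA per cell and more cells of a type cannot be told apart.

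No gene passed the adjusted test for the difference between the mock line and the mutant lines (0%). The smallest adjusted p was 0.485, and 1322 genes had an unadjusted p below 0.05, of which 670 (4.08%) changed more positively in the mock line and 652 (3.97%) less so. The median standard error (SE) of a gene's difference was 0.24, so the design could resolve only large differences at single genes. The mock value stood above all 3 mutant lines at 27.7% of all genes and below all 3 at 26.9%, and the difference was above 0 at 50.6%. Those shares are the background for the gene groups below. For rises called in a group, the background is 1.29% of all genes in the mock line and 4.9% in the mutant lines. Leaving out any 1 of the 5 remaining lines ended every call in the mock line, so the rises called there rest on the pooled spread of all lines.

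The size of the release was first compared on genes already released in mutant lines, picked without the mutant line left out and the mock line. Genes kept low by the E3-dead protein do not enter such a set, so its medians say nothing about them. Genes with a change above 1 in both of the other mutant lines numbered 223, 229 and 220 when I53S #1, I53S #4 and I53A #1 were left out. Their median change in the line left out was 1.34, 1.33 and 1.33, and in the mock line it was 1.44, 1.46 and 1.51. In the WT lines the medians were 0.25 each time. The mock value lay past that of the mutant line left out in 60.1%, 58.1% and 59.5% of these genes, and the median gap was 0.13, 0.11 and 0.17. Genes with a change below -1 in both of the other mutant lines were fewer, at 16, 27 and 12. The mock value was the lower one at 62.5%, 70.4% and 75% of these, with median gaps of -0.18, -0.39 and -0.34.

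**Figure D1:**
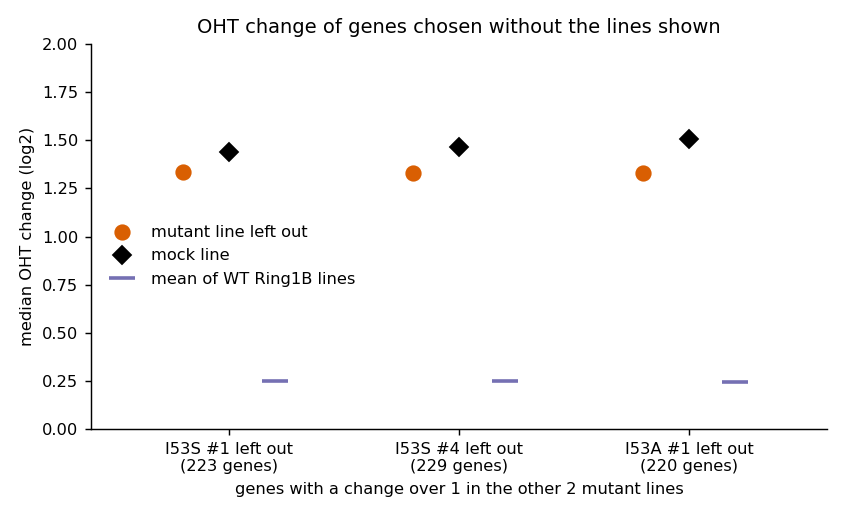
Median OHT change (y axis, log2) of genes with a change above 1 in 2 mutant lines, shown in the mutant line left out (orange), in the mock line (black) and as the mean of the WT Ring1B lines (purple), for each line left out (x axis). The mock medians of 1.44 to 1.51 lie slightly above those of the mutant line left out, 1.33 to 1.34, and the WT medians are 0.25. Genes that stayed low in the mutant lines are not in these sets.

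Counting from the mock side gave a different picture. Of the 634 genes over 1 in the mock line, 233 were also over 1 in the mean of the mutant lines, and 181 (28.5%) were below 0.5 there. From the mutant side, 33 (9.71%) of the 340 genes over 1 in the mutant mean were below 0.5 in the mock line. A single array pair selects more outlying values than a mean of 3, so these counts are unequal by construction and are given as a description. Few of the 181 belong to the main gene groups below: 7 of the 21 Hox genes over 1 in the mock line were below 0.5 in the mutant mean, as were 7 of 42 other developmental transcription factor genes, and 0 of 22 germline genes. The *Hox* share of 33.3% was near the 28.5% of all genes.

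*Hox* genes changed more in the mock line in all but 1 of the measured members. These homeobox genes give cells their position along the body axis, lie in 4 clusters and are classical PRC1 targets. Of 39 listed genes 30 were measured. Their median change was 1.44 in the mock line and 0.49, 0.35 and 0.60 in I53S #1, I53S #4 and I53A #1, against 0.00 over all genes in the mock line. The difference was above 0 for 29 of 30 genes with a median of 0.76, 24 genes stood above every mutant line in the mock line and 1 stood below, and 12 had an unadjusted p below 0.05, all of them larger in the mock line. The start in the mock line was below 3.94 at 12 of the 30, and 2 (*Hoxb1* and *Hoxd3*) exceeded it on no array but that of the mock line on day 2. With no filter on low signals 31 of 33 differences were above 0, with a median of 0.68, and with a filter on the mean signal 11 of 11, with a median of 0.77. After adjustment over all genes 0 of the 30 passed for the difference, while 10 rose in the mock line and 12 in the mutant lines.

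**Figure D2:**
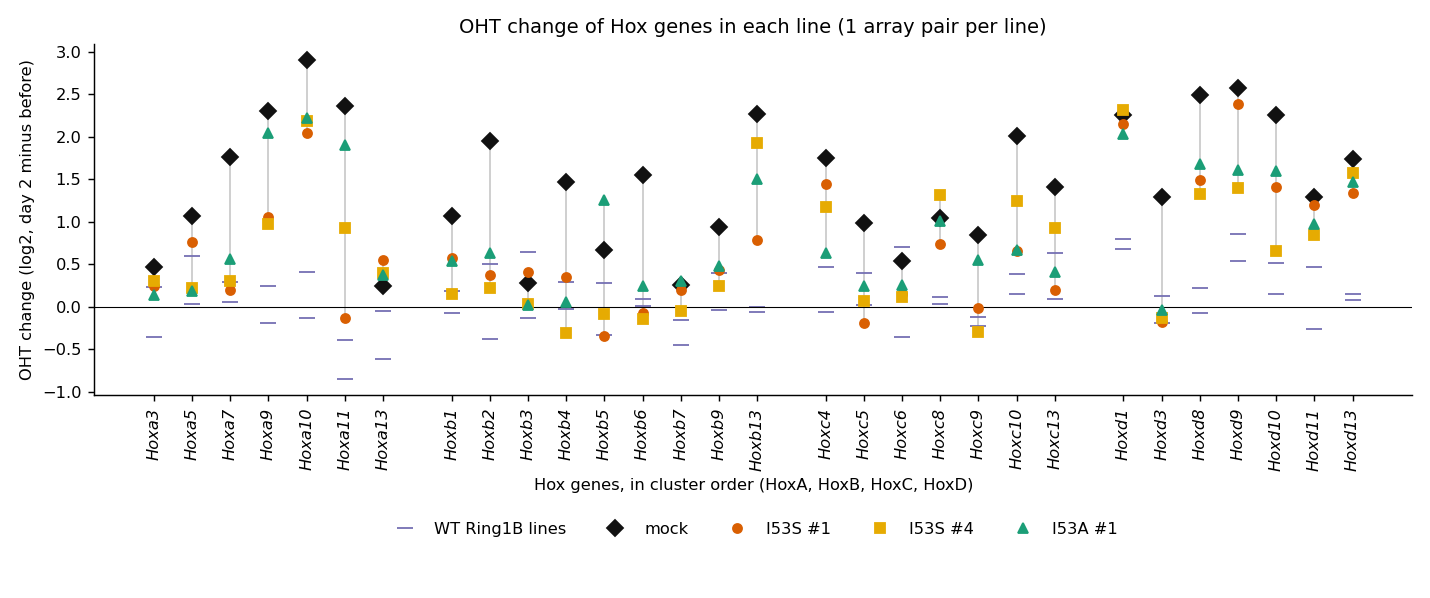
OHT change (y axis, log2, day 2 minus before) of the 30 measured *Hox* genes in cluster order (x axis), 1 value per line: mock (black diamonds), I53S #1, I53S #4 and I53A #1 (coloured), WT Ring1B lines (purple dashes). The mock value is above every mutant line at 24 genes, and at *Hoxd1* and *Hoxc8* it lies among the mutant values.

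The 4 clusters differed in how far they were released. HoxD was released most in both, with a median of 2.25 in the mock line against 1.46 in the mutant mean, and 6 of its 7 measured genes rose in each. HoxA had medians of 1.76 and 0.44, HoxB of 1.07 and 0.27, and HoxC of 1.04 and 0.51. The mutant lines were not alike in the HoxC cluster, with medians of 0.20 and 0.93 in I53S #1 and I53S #4. Without I53S #4 the mutant medians were 0.46 for HoxB and 0.31 for HoxC. In the HoxB cluster 1 of 9 genes rose in the mock line and 1 in the mutant lines, *Hoxb6* and *Hoxb13* respectively. *Hoxb13* still changed more in the mock line, by 2.26 without passing the test there, against a mutant mean of 1.41. *Hoxd11* likewise changed by 1.29 in the mock line, without passing, against a mutant mean of 1.01, which passed. The median difference itself was similar in the clusters, at 0.75, 0.64, 0.77 and 0.77 for A to D.

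*Hoxb6* and *Hoxd3*, like *Hoxb4* and *Hoxc5*, had a mean change near 0 in the mutant lines. *Hoxb6* had a log2 signal of 3.39 before and 4.94 after OHT in the mock line, and went from 4.06 to 3.99, 3.91 to 3.77 and 3.90 to 4.14 in I53S #1, I53S #4 and I53A #1. The change of 1.55 in the mock line passed the test (adjusted p = 0.036, limma), that of 0.01 ± 0.20 (SD, n = 3) in the mutant lines did not, and the difference was 1.54 (SE 0.21, unadjusted p = 4.2e-04, adjusted p = 0.485, limma). *Hoxd3* went from 3.15 to 4.44 in the mock line, a rise of 1.29, while the mutant lines changed by -0.18, -0.13 and -0.04 and the WT lines by -0.20 and 0.13. Its mock value on day 2 was above all 3 mutant values, which were 3.51, 3.15 and 3.73. All mutant values of *Hoxd3* and its mock start lay below 3.94, the bound under which signals are close to background, and the gene passed the filter only through the mock array of day 2. A change of *Hoxd3* under that bound in the mutant lines could therefore not be read. *Hoxb6* was dim as well, with mutant values around the bound. In the mock line both genes started below the mutant mean, by 0.57 and 0.43.

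Several more *Hox* genes showed the same order without overlap between the mock line and the mutant lines. *Hoxa7* rose by 1.76 in the mock line and changed by 0.20, 0.31 and 0.56 in the mutant lines, a difference of 1.41 (95% interval 0.86 to 1.95). *Hoxb2* changed by 1.95 against 0.37, 0.22 and 0.63, and *Hoxb4* by 1.47 against 0.35, -0.31 and 0.05, neither passing the test in the mock line (adjusted p = 0.054 and 0.064, limma). A filter on the mean signal kept *Hoxb2* alone of the HoxB genes, so *Hoxb4* was among the dimmer ones. At *Hoxc5* the mock change was 0.98, and the mutant changes were -0.19, 0.07 and 0.25. *Hoxa11*, a posterior gene, changed by 2.37 against -0.13, 0.93 and 1.90, a difference of 1.47 (SE 0.73).

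*Hox* genes that rose in both had smaller values in the mutant lines at several members. *Hoxa10* went from 3.45 to 6.35 in the mock line, a rise of 2.90, and rose by 2.04, 2.19 and 2.22 in the mutant lines, a difference of 0.75 (95% interval 0.13 to 1.38). Its starts of 3.45 and, in the mutant lines, 3.54, 3.37 and 3.83 all lay below the bound, so the sizes of these rises rest on the background. The day 2 levels were 6.35 against 5.59, 5.56 and 6.05. *Hoxd8* rose by 2.49 against 1.49, 1.33 and 1.68. *Hoxd10* rose by 2.25 against 1.41, 0.66 and 1.59, and *Hoxc10* by 2.01 against 0.65, 1.24 and 0.67. None of these mutant values reached that of the mock line. At *Hoxa9* the mock change of 2.31 stood near the 2.04 of I53A #1 and apart from the 1.05 and 0.97 of the I53S lines.

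*Hoxd1* was released alike. Its log2 signal went from 4.03 to 6.28 in the mock line, from 4.16 to 6.31 in I53S #1, from 4.04 to 6.36 in I53S #4 and from 4.44 to 6.47 in I53A #1. The rises were 2.25, 2.15, 2.32 and 2.04, the groups overlapped, and the difference was 0.08 with a 95% interval of -0.39 to 0.56. The WT lines changed by 0.80 and 0.69. *Hoxd13* rose by 1.74 against 1.33, 1.57 and 1.47 (interval of the difference -0.17 to 0.73), and the *Hoxc8* change of 1.04 in the mock line lay within the mutant values of 0.74, 1.32 and 1.01. The *Hoxd* cluster on chromosome 2 thus held *Hoxd1*, whose rise differed little between the groups, and *Hoxd3*, which was above the bound on the mock array of day 2 alone.

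The RefSeq promoter windows of these neighbours, 300 bases around the start, are printed from GRCm38.p6 on the plus strand. They stand at chr2:74762730-74763029 for *Hoxd1* and chr2:74711743-74712042 for *Hoxd3*. Capitals mark CACGTG, a palindromic E-box that reads the same on both strands and that is taken up again with the germline genes. The first window holds it 1 time and the second 0 times, and 2187 of 27025 genes with such windows (8.09%) hold it at least once.
Hoxd1: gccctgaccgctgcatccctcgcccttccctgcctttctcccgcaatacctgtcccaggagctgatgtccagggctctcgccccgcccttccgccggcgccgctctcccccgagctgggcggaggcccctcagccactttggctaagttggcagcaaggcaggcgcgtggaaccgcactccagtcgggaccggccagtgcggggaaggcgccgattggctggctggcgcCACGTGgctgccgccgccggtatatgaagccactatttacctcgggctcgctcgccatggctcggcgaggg
Hoxd3: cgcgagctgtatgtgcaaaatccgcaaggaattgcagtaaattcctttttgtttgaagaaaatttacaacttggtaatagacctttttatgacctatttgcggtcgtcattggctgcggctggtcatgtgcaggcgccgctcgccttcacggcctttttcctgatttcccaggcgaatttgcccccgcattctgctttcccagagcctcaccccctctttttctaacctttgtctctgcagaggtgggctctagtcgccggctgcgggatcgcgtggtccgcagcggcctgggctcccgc

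Levels and markers stand beside the *Hox* result. Before OHT the mock line was lower than the mutant mean by a median of 0.15 over the 30 genes, with 9 of 30 above 0. On day 2 it was higher by a median of 0.59, with 28 of 30 above 0, so most of the difference in change lay in the level reached on day 2. The fibroblast markers were also higher in the mock line on day 2, by a median of 0.82 over 12 genes, and some *Hox* genes are active in fibroblasts. In I53S #1 the summed fibroblast signal was close to that of the mock line, and the median *Hox* change there was 0.49. The part of feeder cells in the result was not tested.

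**Figure D3:**
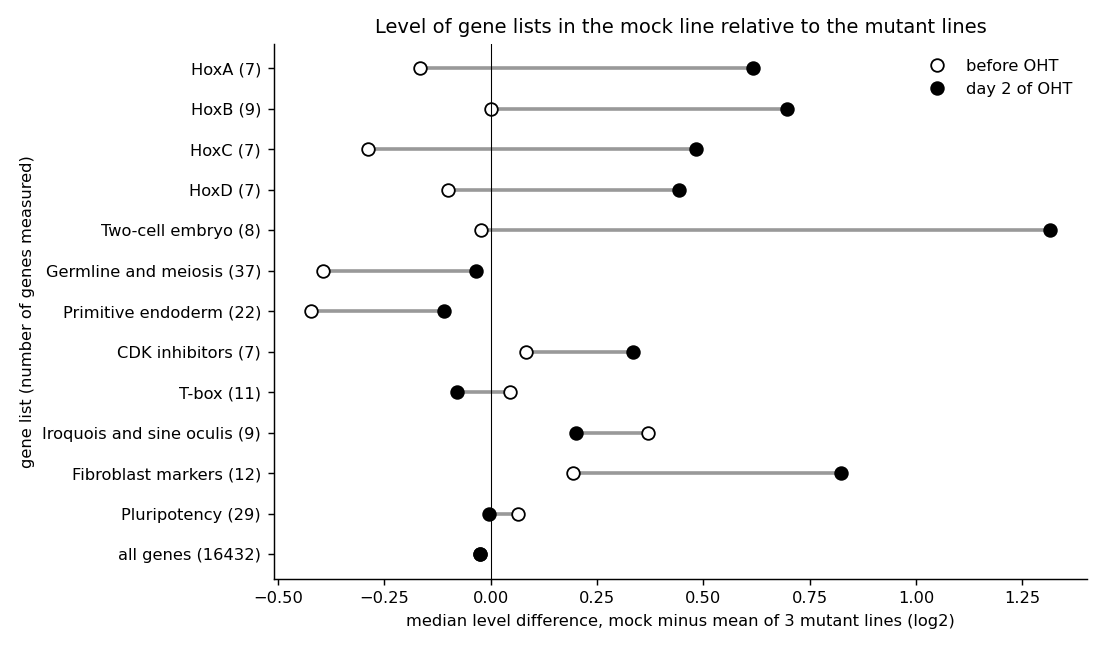
Median over each gene list of the level in the mock line minus the mean of the 3 mutant lines (x axis, log2), before OHT (open circles) and on day 2 (filled circles). The Hox and two-cell lists move to the right of 0 on day 2, while germline and primitive endoderm genes start to the left, at -0.39 and -0.42, and end near 0.

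Other developmental transcription factor genes had a smaller median difference than the *Hox* genes. The list of 153 measured genes holds the T-box, Iroquois, LIM, Pax, Sox, forkhead, GATA, bHLH and further homeobox families, which set up tissues in the embryo. The median change was 0.62 in the mock line and 0.45, 0.33 and 0.35 in I53S #1, I53S #4 and I53A #1. The difference had a median of 0.16 and was above 0 for 95 of 153 genes, with 18 genes larger and 4 smaller in the mock line at an unadjusted p below 0.05. The mock value stood above every mutant line at 60 of the 153 (39.2%) and below at 24 (15.7%), against 27.7% and 26.9% of all genes. The start in the mock line was below 3.94 at 34 of the 153. Of these genes 3 (*Hmx3*, *Nkx2-2* and *Tbx2*) exceeded that bound on no array but that of the mock line on day 2. With no filter on low signals 100 of 165 differences were above 0, with a median of 0.13, and with a filter on the mean signal 47 of 72, with a median of 0.16. In the mock line 18 genes rose and 0 fell, and in the mutant lines 39 rose and 3 fell. On deposited values without quantile normalization the median difference was -0.048, beside -0.22 over all genes.

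**Figure D4:**
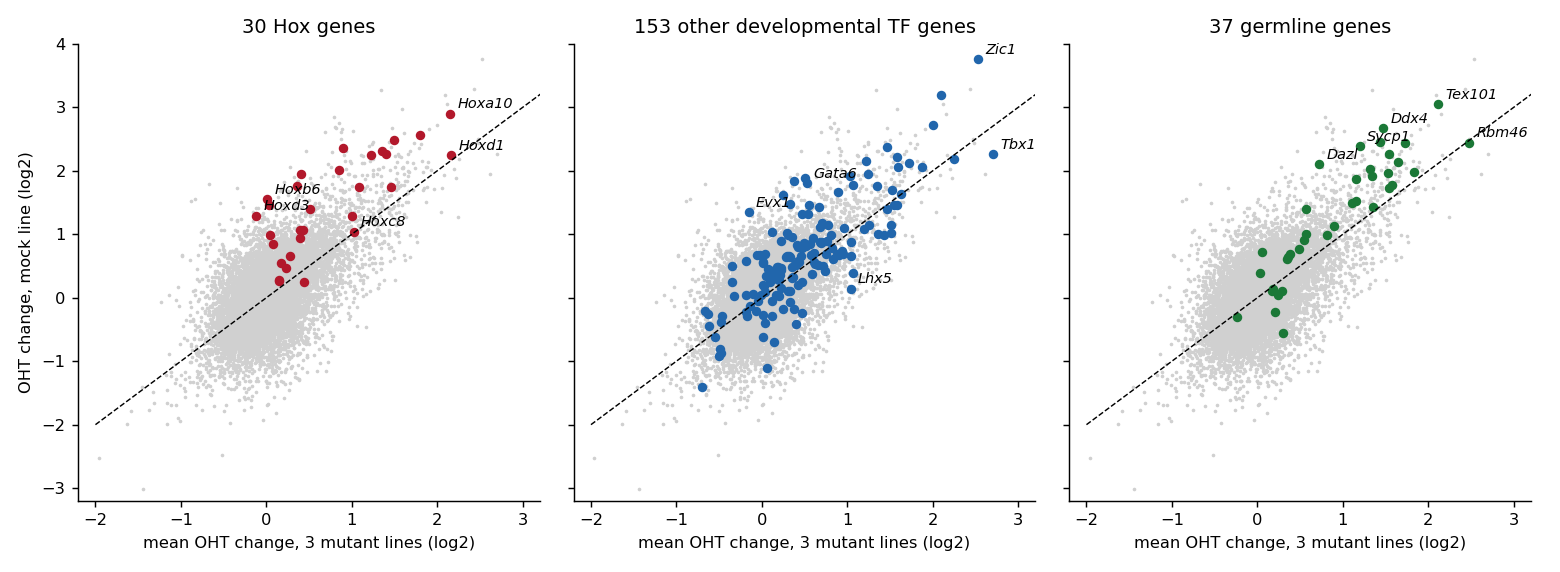
OHT change in the mock line (y axis, log2) against the mean of the 3 mutant lines (x axis, log2) for 30 *Hox* genes, 153 other developmental transcription factor (TF) genes and 37 germline genes, each over all 16432 genes in grey. The dashed line marks equal change. Of the *Hox* genes 29 lie above it, and *Hoxd1* and *Rbm46* lie close to it.

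Within that list some families showed no surplus in the mock line. The 11 T-box genes had medians of 0.78 in the mock line against 0.84 in the mutant lines, with a median difference of -0.03. *Tbx1*, which patterns the pharyngeal arches and heart, went from 4.50 to 6.76 in the mock line and rose by 2.26, against 2.49, 3.13 and 2.50 in the mutant lines. All 3 mutant values lay above the mock value, and the 95% interval of the difference was -1.25 to 0.36. *Tbx18* rose in the mock line by 1.70 against 1.64, 1.72 and 1.20. The 9 Iroquois and sine oculis homeobox genes had medians of 1.02 and 1.07, 2 of 9 differences were above 0, and without I53S #1 it was 5 of 9, with a median of 0.019. *Irx3* rose by 1.41 in the mock line against 1.73, 1.29 and 1.38. *Irx4*, *En2*, a hindbrain and midbrain regulator, and *Barx1*, a homeobox gene of the jaw and stomach, likewise had differences of -0.12, -0.08 and 0.00. Among the 8 Pax genes the mock value was below every mutant line at 4 and above at 3, with a median difference of -0.26. The 4 Zic genes had a median difference of -0.30. Before OHT the mock line was higher by medians of 0.51 for the Zic and 0.37 for the Iroquois and sine oculis genes, and on day 2 by 0.54 and 0.20. For the T-box and Pax genes these medians were 0.05 and 0.13 before OHT and -0.08 and -0.14 on day 2.

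Some lists other than that of the developmental transcription factors also lay on the mutant side. Of 12 genes of the primed epiblast, the state that follows naive ESCs, 7 (58.3%) stood below every mutant line in the mock line, against 26.9% of all genes, with a median difference of -0.39. Of 28 neuronal effector genes 12 (42.9%) did so, with a median of -0.12. Hedgehog and Fgf pathway genes did so at 9 of 23 (39.1%), with a median of -0.21. The neuronal median was -0.02 for the brightest probe set, with 14 of 28 differences above 0. Without I53S #4 the Hedgehog and Fgf median was -0.07, with 11 of 23 above 0. The primed epiblast genes were higher in the mock line before OHT, by a median of 0.41, and still higher on day 2, by 0.28. For these genes the negative difference thus came with a higher start in the mock line. The level medians before OHT and on day 2 were -0.03 and -0.17 for neuronal effectors and 0.21 and -0.05 for the Hedgehog and Fgf list.

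*Zic1*, *Gata6* and *Foxa2* changed more in the mock line, as most *Hox* genes did. *Zic1*, a neural zinc finger gene, went from 3.33 to 7.08 in the mock line, a change of 3.76, and rose by 2.39, 2.89 and 2.32 in the mutant lines. These starts and those of the mutant lines, 3.43, 3.47 and 3.77, lay below the bound of 3.94, so the sizes rest on the background, while the day 2 levels of 7.08 against 5.81, 6.36 and 6.08 do not. *Gata6*, which drives the primitive endoderm, went from 4.55 to 6.35 in the mock line, a rise of 1.80, and changed by 0.45, 0.54 and 0.58 in the mutant lines, whose mean passed the test as well. The WT lines changed by 0.34 and 0.17 at *Gata6*. *Foxa2*, an endoderm and floor plate regulator, rose by 1.88 against 0.75, 0.27 and 0.51. The differences were 1.23 (SE 0.27), 1.28 (SE 0.18) and 1.37 (SE 0.23), with unadjusted p of 0.0041, 4.3e-04 and 0.0012 and adjusted p of 0.501, 0.485 and 0.485 in limma. On day 2 all 3 genes were higher in the mock line than on average in the mutants, by 1.00, 0.75 and 0.46, and before OHT they were lower, by 0.23, 0.53 and 0.92. At *Foxa2* the larger part of the difference thus lay in the start.

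*Evx1*, *Isl1*, *Irx5* and *Lmx1a* add to that side. *Evx1*, a posterior homeobox gene beside the HoxA cluster, changed by 1.35 in the mock line (adjusted p = 0.066, limma) and by -0.47, 0.20 and -0.19 in the mutant lines. *Isl1*, a motor neuron and heart field gene, rose by 2.16 against 1.09, 1.57 and 0.99, and *Irx5* by 1.78 against 1.15, 1.21 and 0.86. *Lmx1a* changed by 1.61 against 0.39, 0.53 and -0.16. *Cdx2*, the trophectoderm regulator, changed by 1.47 against values of -0.52, 1.05 and 0.47 that lay far apart. *Cdx2*, *Hnf4a* and *Kdr* passed the test in neither group, the latter pair with changes of 0.33 and 0.47 in the mock line and means of -0.13 and -0.21 in the mutant lines. *Tbx3*, *Pax3* and *Pax9* changed by 0.58, 0.67 and -0.18 in the mock line and by means of 0.42, 0.90 and 0.25 in the mutant lines, where *Pax3* rose.

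Germline and meiosis genes were released strongly in both situations. A variant PRC1 keeps many such genes silent in ESCs, and they encode RNA helicases, piRNA factors and proteins of the synaptonemal complex. Of 37 measured genes 16 (43.2%) rose in the mock line and 22 (59.5%) in the mutant lines, against 1.29% and 4.9% of all genes, and 0 fell in either. The median change was 1.44 in the mock line and 1.02, 0.79 and 0.90 in I53S #1, I53S #4 and I53A #1. The difference was above 0 for 29 of 37 genes with a median of 0.36, and 10 genes had an unadjusted p below 0.05, all larger in the mock line.

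The germline difference lay more in the start than in the level on day 2. Before OHT 32 of 37 were lower in the mock line than on average in the mutants, with a median of -0.39, and on day 2 the median was -0.04 with 16 of 37 above 0. *Dazl*, an RNA-binding protein of germ cells, rose by 2.11 in the mock line and by a mean of 0.73 ± 0.32 (SD, n = 3) in the mutant lines, and the difference of 1.38 came with a start that was lower by 0.87. *Ddx4*, the germ cell helicase, rose by 2.68 against 1.84, 1.14 and 1.43, with a start lower by 0.99 and a day 2 level higher by 0.22. *Tdrkh* and *Tex101* had starts lower by 1.11 and 1.00 and day 2 levels lower by 0.09 and 0.07. *Sycp1*, a synaptonemal complex gene, was an exception, with a start lower by 0.09 and a day 2 level higher by 1.10. None of these level differences passed the adjusted test, for which 1175 genes before OHT and 1195 on day 2 had an unadjusted p below 0.05.

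*Rbm46*, a germ cell RNA-binding protein gene, had a difference near 0 with a wide interval. It rose by 2.44 in the mock line and by 2.59, 2.57 and 2.28 in the mutant lines, a difference of -0.04 with a 95% interval of -1.12 to 1.04. *Slc25a31*, a testis ATP/ADP carrier, rose by 1.98 against 2.15, 1.42 and 1.94. *Mael*, a piRNA factor, changed by 1.78 against 2.19, 1.32 and 1.21.

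The promoters of germline genes are known to carry E-boxes and E2F sites, which recruit the variant PRC1 complex. Of the 37 measured genes 34 have a RefSeq window, and CACGTG was found in 16 of them (47.1%), against 8.09% of all genes with a window. GCGGGAA or its reverse complement was found in 9 of 34, against 5.29% of all genes. TCACGTGA was found in 0 of 34 and TTCCCGCC in 4, against 1.12% and 2.52%. TCCCGC, which overlaps both E2F strings, was found in 16 of 34, against 22.1%. The 16 genes with CACGTG had median changes of 1.51 in the mock line against 1.13 in the mutant lines, and the 18 without it 1.07 and 0.58. For the *Hox* genes only 17 of 30 (56.7%) had a window, so a count over that list is void.

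The windows of 3 germline genes with an E-box are shown because their differences were unlike, at -0.04 for *Rbm46*, 1.19 for *Sycp1* and 1.21 for *Ddx4*. They come from GRCm38.p6, minus strand, at chr3:82876434-82876733, chr3:102936051-102936350 and chr13:112652261-112652560, and capitals again mark CACGTG, found 1 time in each. The motif was thus present in windows of genes with and without a surplus in the mock line.
Rbm46: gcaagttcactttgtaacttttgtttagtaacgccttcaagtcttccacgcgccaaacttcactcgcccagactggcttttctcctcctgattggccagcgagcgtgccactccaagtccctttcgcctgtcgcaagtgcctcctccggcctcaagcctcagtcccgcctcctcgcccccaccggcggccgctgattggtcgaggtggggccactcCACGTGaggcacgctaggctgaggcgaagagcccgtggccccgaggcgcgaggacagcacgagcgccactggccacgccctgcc
Sycp1: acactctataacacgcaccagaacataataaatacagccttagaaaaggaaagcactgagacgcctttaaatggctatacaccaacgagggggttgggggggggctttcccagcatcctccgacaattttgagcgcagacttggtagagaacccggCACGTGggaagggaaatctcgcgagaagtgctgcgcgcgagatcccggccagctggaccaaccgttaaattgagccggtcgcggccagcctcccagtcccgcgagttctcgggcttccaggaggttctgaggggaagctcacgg
Ddx4: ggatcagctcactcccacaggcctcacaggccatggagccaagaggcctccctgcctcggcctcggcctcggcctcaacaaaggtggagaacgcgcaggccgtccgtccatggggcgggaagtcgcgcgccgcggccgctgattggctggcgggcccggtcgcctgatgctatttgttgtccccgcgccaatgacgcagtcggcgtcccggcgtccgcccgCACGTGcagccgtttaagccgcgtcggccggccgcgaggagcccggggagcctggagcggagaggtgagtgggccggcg

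Genes of the two-cell embryo, which a small fraction of ESCs expresses at any time, gave the largest median difference of the lists. Of 13 listed genes 8 were measured, 4 rose in the mock line and 2 in the mutant lines. The median change was 1.97 in the mock line and 1.14, 0.56 and 0.42 in I53S #1, I53S #4 and I53A #1, and the median difference was 1.05. The WT lines had medians of 0.59 and 0.06, so WT #1 was above I53S #4 and I53A #1. *Tcstv1* went from 7.78 to 10.07 in the mock line, a rise of 2.29, from 8.60 to 9.89 in I53S #1, from 6.45 to 7.17 in I53S #4 and from 8.28 to 8.59 in I53A #1. The day 2 level of I53S #1 was thus close to that of the mock line. *Tcstv3* showed the same order, at 8.40 in the mock line on day 2 and 8.29, 4.83 and 6.81 in the mutant lines.

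*Arg2*, an arginase gene of that list, rose by 2.12 in the mock line and by 1.18, 1.18 and 0.99 in the mutant lines, a difference of 1.00 (95% interval 0.51 to 1.49). *Dppa3*, a maternal factor gene also expressed in naive ESCs, rose alike, by 1.07 against 0.99, 1.02 and 1.14, with a 95% interval of the difference of -0.42 to 0.47. The two-cell genes *Tcstv1*, *Tcstv3* and *Zfp352* differed between the mutant lines already before OHT, as the *Tcstv1* values of 8.60 in I53S #1 and 6.45 in I53S #4 show. In the WT lines *Tcstv3* changed by 1.11 and 0.88, and *Arg2* by 0.91 and 0.67.

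**Figure D5:**
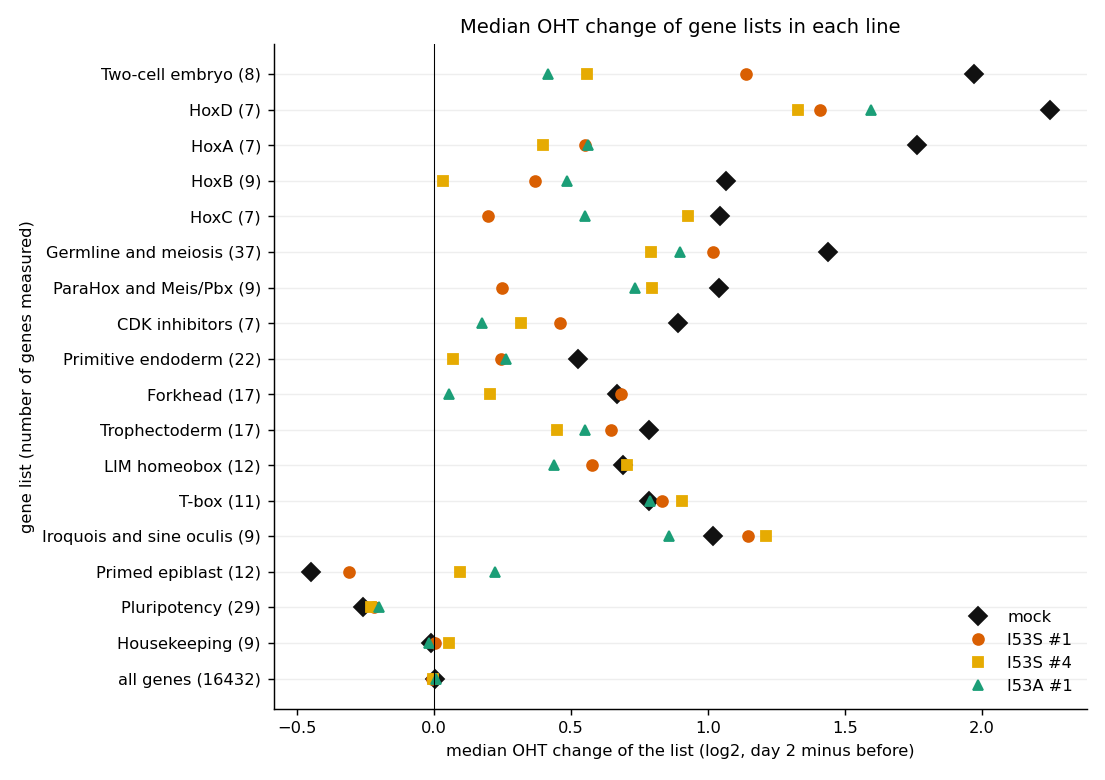
Median OHT change (x axis, log2) of 17 gene lists and of all genes in the mock line (black) and in the mutant lines I53S #1, I53S #4 and I53A #1 (coloured), with the number of genes measured in brackets. The mock median lies above all mutant medians for the Hox, two-cell and germline lists. It does so too for the ParaHox and Meis/Pbx, CDK inhibitor, primitive endoderm and trophectoderm lists. For the T-box list it is 0.78 against a mutant mean of 0.84.

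Smaller lists of extraembryonic and cell cycle genes followed. The 22 primitive endoderm genes had a median change of 0.53 in the mock line against 0.16 in the mutant lines, with 4 rises in each and a start in the mock line lower by 0.42. Of 17 trophectoderm genes 0 passed in the mock line and 8 (47.1%) rose in the mutant lines, against 1.29% and 4.9% of all genes. The unequal counts come with 1 line against 3. The medians were 0.78 in the mock line and 0.58 in the mutant lines, and 12 of 17 differences were above 0. All 7 CDK inhibitor genes, which slow the cell cycle, stood above every mutant line in the mock line, against 27.7% of all genes. Their medians were 0.89 and 0.32, and 3 had an unadjusted p below 0.05, all larger in the mock line. *Cdkn1c*, an imprinted member, rose in both, by 2.00 against 1.87, 1.60 and 1.52, and *Cdkn2b* changed by 0.89 against 0.46, 0.32 and 0.17.

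Of 25 measured PRC1 subunit genes 2 rose in the mock line and 3 in the mutant lines, with medians of 0.03 and 0.06. *Bmi1*, a Polycomb group partner of the Ring1 proteins, rose by 1.43 in the mock line and by 1.04, 0.86 and 0.70 in the mutant lines, and *Phc2*, a Polyhomeotic subunit gene, rose by 1.25 against 1.25, 0.85 and 1.01. Of 12 PRC2 subunit genes 0 passed in either group. The 9 housekeeping genes had medians of -0.01 and 0.00.

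Genes of the undifferentiated state had small changes in both groups. The 29 pluripotency genes had medians of -0.26 in the mock line against -0.24 in the mutant lines, with 2 falls and 1 rise against 3 falls and 2 rises, and a median difference of 0.02. *Nr0b1*, an orphan nuclear receptor gene of ESCs, went from 10.46 to 8.97 in the mock line and fell by 1.49 there, and by 1.34, 1.23 and 1.40 in the mutant lines. Its WT changes were 0.05 and -0.04. *Pou5f1*, *Nanog* and *Sox2* passed in neither group, with mock changes of -0.49, 0.25 and -0.59 and mutant means of -0.22, 0.05 and -0.33.

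Among other genes that fell, *Trh*, the thyrotropin-releasing hormone gene, went from 10.43 to 7.90 in the mock line and fell by 2.53, against falls of 2.32, 2.05 and 1.51. *Egr1*, an immediate early gene, fell by 1.99 against 2.11, 1.43 and 1.37. The amino acid transporter gene *Slc7a3* fell by 1.22 against 1.37, 0.94 and 1.20. *Myo1f* and *Ifitm3* fell by 1.78 and 1.24 in the mock line and had differences of -0.19 and -0.33. *Slc7a3*, *Myo1f* and *Ifitm3* were picked for small differences among genes called lower in both. *Tgm5* fell by 1.98 in the mock line and changed by -0.64, -0.19 and -0.45 in the mutant lines, and *Smarca1*, a chromatin remodeller gene, fell by 1.79 against changes of -0.84, -0.08 and -0.56. *Glod5*, *Actn3* and *Fgf17* fell in both groups and had differences of -0.83, -0.86 and -0.93. Of the 63 genes that fell in the mock line 37 fell in the mutant lines too and 26 were not called there. The mock value was below every mutant line at 61 of the 63, a count that the choice on the mock side favours.

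Further genes had similar rises in the groups. *Bhmt2*, a methyltransferase gene of methionine metabolism, went from 3.11 to 5.62 in the mock line and rose by 2.51, against 2.19, 2.49 and 2.74 (95% interval of the difference -0.58 to 0.65). Its starts, 3.11 and 3.03, 3.62 and 3.49 in the mutant lines, lay below the bound. *Dmrt1*, a gonadal transcription factor gene, rose by 1.53 against 1.50, 1.72 and 1.39. *Penk*, an enkephalin precursor gene, *Tec*, a tyrosine kinase gene, and *Adcy7*, an adenylate cyclase gene, had differences of 0.00, 0.00 and 0.01, with mock rises of 1.42, 1.22 and 1.68. These were picked for their small differences among genes that rose in both, so the values are a description.

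Other genes had larger rises in the mutant lines. As given above, 652 genes (3.97%) had a negative difference at an unadjusted p below 0.05. Of the 805 genes that rose in the mutant lines, 625 were not called in the mock line. The mock value was below every mutant line at 243 of the 805 (30.2%) and above at 272 (33.8%). Over all genes these shares were 26.9% and 27.7%. The median difference of the 805 was 0.02, so as a set they did not lean to the mutant side, although they were chosen there. *Myh6*, a cardiac myosin gene, went from 6.02 to 7.29 in the mock line and from 5.09, 5.03 and 5.18 to 7.41, 7.33 and 7.29 in the mutant lines. The rises were 1.27 against 2.33, 2.30 and 2.11, with equal day 2 levels and a start in the mock line higher by 0.92. *Fgf8*, a growth factor gene of the embryo, changed by 0.73 against 1.30, 1.66 and 1.47, from a start in the mock line only 0.01 above the mutant mean, so its difference of -0.75 lay on day 2. *Lhx5* and *Pax1* changed by 0.14 and 0.38 in the mock line and rose by means of 1.04 and 1.07 in the mutant lines, and *Psmb8*, an immunoproteasome gene, changed by 0.98 against a mean of 1.75. The differences at *Lhx5*, *Pax1* and *Psmb8* were -0.90, -0.69 and -0.77, with adjusted p of 0.506, 0.594 and 0.572 in limma.

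The extremes of the difference over all genes were genes with 1 probe set, most of them dim. The largest was *Cd33*, which went from 3.09 to 4.88 in the mock line and changed by -0.18, -1.06 and -0.76 in the mutant lines, a difference of 2.46 with a start lower by 0.93. *Trim43a*, *AA467197* and *BC080696* were brighter and rose in the mock line, by 2.85, 3.27 and 2.68, against mutant means of 0.79, 1.34 and 0.81. In the other direction *2310040G24Rik* went from 5.29 to 3.48 in the mock line, while the mutant lines changed by -0.32, 0.38 and 0.30 and started lower by 1.57. Of the 12 genes with the largest positive difference 11 started lower in the mock line than on average in the mutants, and of the 10 in the other direction 9 started higher. A start that is off in the single mock array enters the difference itself.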

How the data were processed

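RNA of 6 ESC lines was measured before OHT and on day 2 on Affymetrix arrays, 1 for each line and time point. The values deposited by the authors are log2 probe set signals. The labels name RMA in Expression Console, with no version stated, and the study's supplementary methods name MAS5 signals and quantile normalization. The deposited arrays had medians from 4.66 to 5.69 and were quantile-normalized here. Of 45101 probe sets 64 controls were left out, and 34945 had 1 gene symbol, 932 several and 9160 none. Probe sets whose brightest array exceeded 3.94 (percentile 30 of the normalized signals) were averaged per symbol, which gave 16432 genes. Signals near that bound are close to background, and precision is limited by how few arrays there are.

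The model was fitted with limma 3.58.1 in R 4.3.3 on all 12 arrays, with line as a block and 1 OHT effect for each of mock, WT and mutant, a two-sided test and Benjamini-Hochberg adjustment over all genes (call: adjusted p below 0.05). Levels before OHT and on day 2 were compared without the block. The 2 arrays of a line were paired because they come from the same cells, and their deviations from the class means correlated at 0.27 to 0.43. No label says that lines of a class were independent transfections, so p-values measure the spread between these lines. The script was tested on simulated data. Genes named were those of the study's own expression assays, the 12 and 10 largest differences in each direction, the 10 and 5 smallest among genes called in both, the 5 smallest p, the 8 largest falls among genes called lower in the mock line, and called or most different members of 39 gene lists. The members and lists were chosen with earlier results of these data known. Promoter windows are RefSeq, GRCm38.p6. Python 3.11.15 with pandas 2.3.3 and matplotlib 3.10.9 made the summaries and plots. Alternatives were values as deposited, median centring, other filters and probe set rules, other priors, subsets of lines and each line left out.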

Additional observations from a re-analysis of the deposited data

Results flagged for a closer look

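At 22 of the named genes the mock line and all 3 mutant lines changed in opposite directions, with an unadjusted p below 0.05 for the difference in limma. None passed after adjustment over all genes. Many of the named genes were picked for a large difference or a small p, which favours such genes. The count is therefore a description, and the share of all genes was not counted. In the mock line *Cd33*, *Myoz1*, *Cypt3*, *4930455D15Rik*, *Prodh2* and *Svop* changed upward and in the mutant lines downward, with differences of 2.46, 2.42, 2.40, 2.03, 1.81 and 1.80. *Hoxd3* (1.41), *Wnt16* (1.10), *Foxl1* (0.85), *Cdkn2d* (0.60) and *Pax5* (0.58) had the same directions, and at *Hoxd3* all mutant values lay below the bound of 3.94. The opposite directions, down in the mock line and up in the mutant lines, were seen at *Sele* (-1.80), *Akr1c12* (-1.76), *Cypt4* (-1.65), *Pde6h* (-1.64), *1700028I16Rik* (-1.64), *Cck* (-1.63), *Apcs* (-1.62), *Cox7b2* (-1.44), *Zim1* (-1.40), *Barhl1* (-0.84) and *Fas* (-0.74). *Apcs*, the serum amyloid P gene, had the smallest p for the difference of any gene.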

How the results depend on the processing

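The count of genes for the difference between the mock line and the mutant lines was 0 under all alternatives except trended and robust priors, which gave 1 (*Calcoco2*, -0.94). The same priors gave 2 genes for the level before OHT (*Serpinb6e* and *Tuft1*) and 0 on day 2. Calls in the mock line, 275, moved to 922 on deposited values (175 higher, 747 lower, with a median of all genes of -0.34), 884 with a filter on the mean signal, 1343 with trended and robust priors, 0 on 8 arrays without the WT lines and 0 with I53S lines alone. With any 1 line left out they were 0 in every fit. Calls in the mutant lines, 1060, moved to 1781, 2220 and 153 with the mean filter, those priors and I53S lines alone, split into 540 higher and 571 lower on deposited values, and were 153 to 735 without any 1 line. In the fit with no replicate block, which ignores the pairing of the arrays of a line, 98 and 564 genes were called. The median *Hox* difference, 0.76, was 0.54 on deposited values, where the median of all genes was -0.22, and 0.66 to 0.82 without any 1 line. That of other developmental transcription factors, 0.16, was -0.048 on deposited values, 0.20 with median centring, 0.17 for the brightest probe set, 0.13 with no filter, 0.13 with I53S lines alone and 0.13 to 0.18 without any 1 line. The causes were not tested. A line left out of the WT pair leaves the other with no residual, so both such fits equal that on 8 arrays. For single named genes, 1582 of the differences under alternatives kept their direction and 46 changed it, none of them past the threshold, and 526 of the mock changes lost their call.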
